A study of Mus musculus and Homo sapiens with 4 samples.

Results

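The genes described here are 33 adhesion receptors of the cell surface: integrin subunits, cadherins, adhesion molecules of the immunoglobulin superfamily, CD44, syndecans and tetraspanins. They were chosen by symbol, and 32 of the 33 were matched on each platform, through 90 of 45101 mouse probe sets and 102 of 54675 human probe sets. ITGA11 was not matched in mouse and CDH13 was not matched in human, and neither was analysed there. A gene was represented by its brightest probe set, which had to carry 1 gene symbol and had the highest mean over both arrays of the line. It was kept when that probe set exceeded the array median, taken over all probe sets but the controls, in 1 or both arrays (5.29 and 5.28 on the mouse arrays, 4.64 and 4.67 on the human arrays). This kept 23 of 32 members in mouse and 28 of 32 in human, among 11646 and 13244 kept genes in all.

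Affymetrix arrays, 4 in number, each held RNA of 1 stably infected derivative. LM8, a mouse osteosarcoma line, and A375M, a human melanoma line, each carried a pSIREN-RetroQ retroviral vector, either the control vector or a vector with a short hairpin RNA against Merm1/Wbscr22 of the same species. Merm1/Wbscr22, now BUD23, encodes a methyltransferase of 18S ribosomal RNA. All groups, controls included, had been infected, and the labels give neither the sequence of the hairpins nor whether a line was grown from 1 clone. With 1 array per group there is no replicate, no test and no p-value, and 1 hairpin line per species means that effects of the target and of the hairpin or the derivation of the line cannot be told apart.

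Integrins are heterodimers of an alpha and a beta subunit that hold cells to the extracellular matrix and link it to actin. The alpha subunit sets much of the ligand choice, such as collagen, laminin or proteins with an RGD motif, while the beta tail recruits talin and kindlin. Cadherins join like cells through calcium-dependent contacts and bind catenins inside the cell. In melanoma a loss of E-cadherin (CDH1) with gain of N-cadherin (CDH2) and of integrin beta3 (ITGB3) is a known feature of invasive growth, and osteosarcoma cells attach to bone matrix largely through integrins.

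The target and the cell types were checked first. In LM8 Bud23 read 10.61 (control) and 8.48 (knock-down), and BUD23 read 10.70 and 8.38 on its bright probe set in A375M, so the labels held in both lines. All 5 matched osteoblast markers lay above the array median in both LM8 arrays, and all 6 matched melanocyte markers did so in both A375M arrays. In the other line 4 of 7 osteoblast markers (A375M) and 2 of 7 melanocyte markers (LM8) also did so in both arrays. Lying above the median is thus a weak sign of cell type. Leukocyte markers lay above it for 3 of 6 in the LM8 control array and 2 of 6 in the knock-down array, with summed linear levels of 302 and 288. In A375M they did so for 4 of 6 in each array, with summed levels of 177 and 163. PTPRC, the pan-leukocyte marker, lay below the median in all 4 arrays. Endothelial markers lay above it for 2 of 6 in the LM8 control array and 3 of 6 after knock-down, with summed levels of 326 and 321, and epithelial markers for 1 of 7 in each. In A375M endothelial markers did so for 4 of 6 and epithelial markers for 3 of 7 in each array. Fibroblast and smooth muscle markers lay above it for 6 of 7 in all 4 arrays, and among them Col3a1 read 6.59 and 8.96 in LM8, the highest difference of all kept genes there (2.37). The part of such cells in the results was not tested. In such bulk RNA fewer cells of a type and less RNA per cell cannot be told apart. The SD between kept probe sets of 1 gene, a technical gauge that leaves out the spread between cultures, came to 0.12 in LM8 and 0.071 in A375M at the median. On the human arrays 45.4% of all probe sets carried a value that was equal in the arrays to every printed digit, and so had 38 of the 102 member probe sets (37.3%). Such a value of 0 is a property of the deposited values and is no precise measure of an absent difference.

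In LM8, Itga8 and Itga10, integrin subunits that bind RGD proteins and collagen, and Ncam1 were lower in the knock-down array, and Itgb3 and Mcam were higher. These were the 5 kept members past the threshold used throughout, a difference of at least 0.32 on the log2 scale in either direction, which is a linear ratio of 5 to 4. The regions upstream of the start of 3 of them, Itga8, Itga10 and Mcam, are shown because only these of the 5 had an entry in the promoter table. Each is the 250 bases before the gene's start from RefSeq (GRCm38.p6), 5′ to 3′ on the strand of the gene, with capitals marking matches to a GC box (GGGCGG), an E-box (CANNTG) or an AP-1 site (TGANTCA) on either strand. The promoter table matched 22 of the 33 members, and Itgb3 and Ncam1 were not among them.
Itga8 (chr2:12301945-12302194, minus strand): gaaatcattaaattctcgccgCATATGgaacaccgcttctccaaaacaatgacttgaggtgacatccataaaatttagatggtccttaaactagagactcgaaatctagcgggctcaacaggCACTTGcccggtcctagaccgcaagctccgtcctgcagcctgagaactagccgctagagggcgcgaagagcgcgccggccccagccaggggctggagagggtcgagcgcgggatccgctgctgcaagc
Itga10 (chr3:96645334-96645583, plus strand): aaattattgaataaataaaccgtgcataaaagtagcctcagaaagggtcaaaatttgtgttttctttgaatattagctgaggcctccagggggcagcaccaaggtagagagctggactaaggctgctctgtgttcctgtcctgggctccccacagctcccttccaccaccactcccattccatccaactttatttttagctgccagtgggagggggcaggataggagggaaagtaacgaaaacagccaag
Mcam (chr9:44134408-44134657, plus strand): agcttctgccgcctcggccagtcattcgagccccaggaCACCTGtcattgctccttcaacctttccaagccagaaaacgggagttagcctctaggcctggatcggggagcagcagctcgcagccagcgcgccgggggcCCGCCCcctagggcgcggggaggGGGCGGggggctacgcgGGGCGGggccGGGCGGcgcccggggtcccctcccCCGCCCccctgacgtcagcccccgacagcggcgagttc
The Mcam region held 5 GC boxes and 1 E-box at a G and C content of 73.6%. The Itga8 region held 2 E-boxes and no GC box at 56.4%, and the Itga10 region held none of these motifs at 48%. An E-box and an AP-1 site can share 2 bases, although no AP-1 site was found here. Among 32851 promoter regions of this length 32.7% held a GC box, 66.2% an E-box and 6.75% an AP-1 site, and the median G and C content was 52.4%. A match describes these letters and says nothing about binding.

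Itga8, the alpha subunit that pairs with beta1 and binds RGD proteins such as osteopontin and nephronectin, had the largest difference among the members in LM8. It read 7.06 in the control and 6.04 in the knock-down, which is -1.03 on the log2 scale and left 49.04% of the control level (2.04-fold lower). It had the 35th lowest difference among 11646 kept genes. Its other probe set was dim in both arrays (4.59 and 4.26) and also lower, by 0.33. In A375M all 4 ITGA8 probe sets lay below the array median, so the gene was not kept there, and its brightest read 4.26 and 4.23.

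The collagen-binding alpha subunits differed unequally in LM8. Itga10, a collagen receptor subunit known from cartilage, read 9.28 and 8.87, a difference of -0.41. Itga1 read 7.08 and 7.05 and Itga2 read 5.43 and 5.45, both within the technical gauge. In A375M the subunit ITGA11, a receptor for fibrillar collagen, read 6.83 in the control and 6.43 in the knock-down, differing by -0.40. Its other probe sets lay below the median and were identical in both arrays. ITGA2 read 8.13 and 7.94 on its brightest probe set and was identical, at 6.15, on the other, and ITGA1 was identical, at 6.37, on its brightest and read 5.42 and 5.59 (0.17) on its other kept probe set. ITGA10 read 10.33 in both arrays to 2 decimals. Averaged over its probe sets ITGA11 differed by -0.13, and with 32 added to the linear values by -0.30, both short of the threshold. As Itga11 was not matched in mouse, the lines cannot be compared in it.

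Among the laminin-binding subunits, Itga6 read 6.34 and 6.65 in LM8, a difference of 0.30 that lay just short of the threshold. Itga3 read 8.16 and 8.26, with 0.11 and 0.27 on its kept probe sets, and Itga7 read 6.61 in both arrays. In A375M none of the 3 passed the threshold on its brightest probe set, and all 3 had negative values, where 40.3% of all kept genes did. ITGA6, which pairs with beta1 or beta4, read 10.02 and 9.80 on its brightest probe set and 8.63 and 8.20 on the other, differences of -0.22 and -0.42. ITGA3 read 7.34 and 7.11, a difference of -0.23, and ITGA7 differed by -0.067. The laminin-binding subunits thus had medians of 0.11 (LM8) and -0.22 (A375M), over 3 genes each.

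ITGA5, the fibronectin receptor subunit, had the lowest difference of the members in A375M. It read 8.79 in the control and 8.36 in the knock-down, which is -0.43 on the log2 scale or 1.35-fold lower. This left 74.1% of the control level and was the 148th lowest of 13244 kept genes. It had 1 probe set. In LM8 Itga5 read 5.91 and 5.96 on its only kept probe set, a difference of 0.052. The third RGD-binding subunit, ITGAV, partner of beta3, beta5 and beta8, read 11.88 in both A375M arrays, and 10.55 and 10.65 in LM8. Its dimmer kept mouse probe sets differed by -0.058 and -0.39, so the kept probe sets of Itgav were of both signs.

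ITGA4 and ITGA9, relatives that bind VCAM1 and tenascin among others, were lower in A375M by small amounts. ITGA4 read 9.27 and 9.09, and of its 4 probe sets 3 were lower and 1 was identical, with a range from -0.18 to 0. ITGA9 differed by -0.094 and -0.025 on its kept probe sets. In LM8 the kept Itga9 probe sets differed by -0.15, 0.28 and -0.22, which is both signs within 1 gene. Itga4 was not kept in LM8, where all its probe sets lay below the median and the brightest read 3.55 and 3.83.

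**Figure D1:**
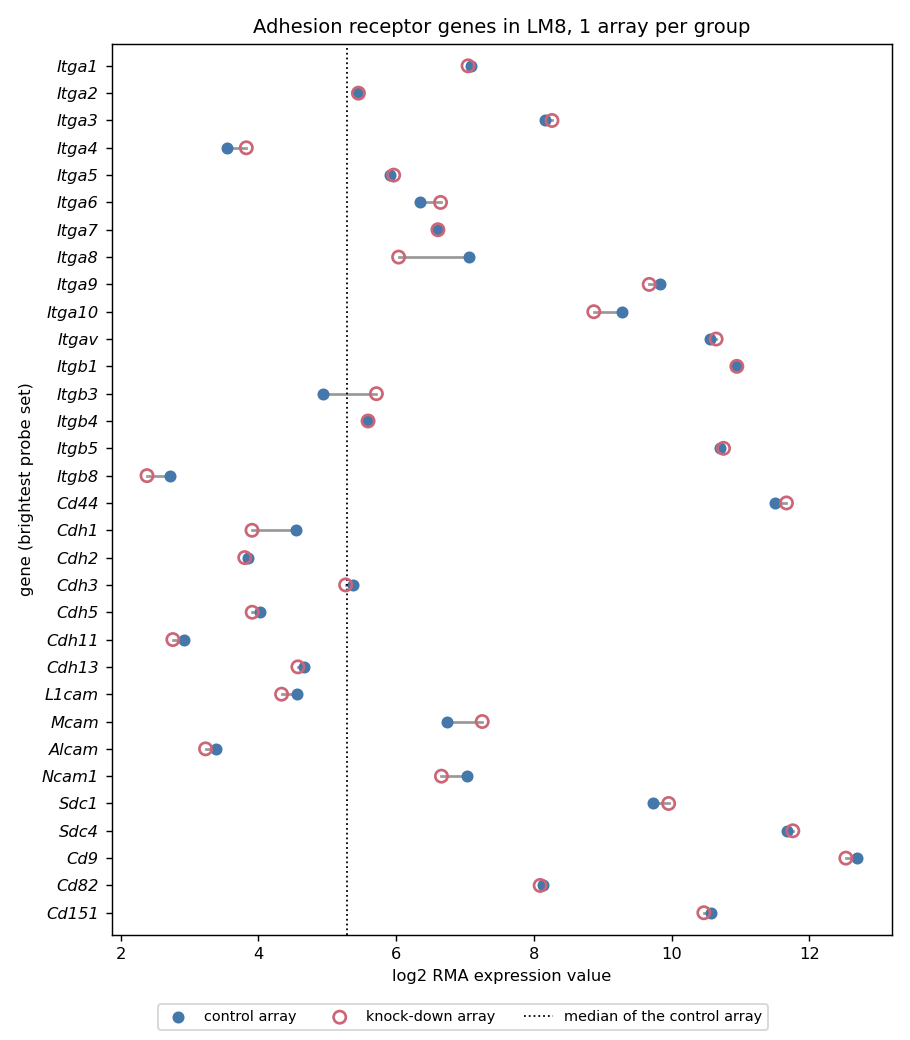
Log2 RMA expression values of 32 adhesion receptor genes in LM8, with the control array as filled points and the knock-down array as open circles, 1 array each, and the dotted line at the control median of 5.29. Itga8 (7.06 to 6.04) and Itgb3 (4.93 to 5.71) had the widest gaps among the kept genes, and levels of different genes are not comparable because probe sets differ in response.

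On its brightest probe sets the beta subunit ITGB3 went opposite ways in the lines. Itgb3, the beta subunit of the vitronectin receptor and, with platelet alphaIIb, of the fibrinogen receptor, read 4.93 in the LM8 control, below the array median, and 5.71 after knock-down. The difference of 0.78 (1.72-fold higher) was the 47th highest of 11646 kept genes. The gene passed the filter only through the knock-down array, so its presence among the kept genes supports nothing. An offset of 32 on the linear scale brought the difference to 0.43. Averaged over both probe sets it was 0.29, short of the threshold, and the gene no longer passed the filter. The other mouse probe set was dim and went the other way, from 4.64 to 4.44. In A375M, where ITGB3 was bright, the brightest probe set read 10.42 in the control and 10.10 in the knock-down, a difference of -0.3222, just past the threshold of 0.3219. The next read 8.53 and 8.23 (-0.30). The remaining kept ITGB3 probe sets differed by 0.097, -0.16, -0.024 and -0.12, so 5 of 6 were lower. The call rests on the choice of probe set: the mean over all of them differed by -0.12, and without those marked as possibly shared with other transcripts the value was 0.097.

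ITGB8, which pairs with alphaV and is known for activating latent TGF-beta, was lower in A375M on every kept probe set. Its brightest probe set read 11.39 and 11.09, a difference of -0.2967 that fell just short of the threshold. Its other kept probe sets read 7.57 and 7.06 (-0.51) and 6.22 and 5.54 (-0.68), and another, below the median, differed by -0.60. The last probe set was dim and identical in both arrays. Over the 3 kept probe sets the level was 1.23-fold to 1.61-fold lower. In LM8 its single probe set lay near the bottom of the range, at 2.72 and 2.38.

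ITGB1, the common partner of most alpha subunits listed here, differed little in either line. In A375M its 3 kept probe sets read 12.25 and 12.15, 10.34 and 10.26, and 9.88 and 9.71, with differences from -0.17 to -0.076. In LM8 the brightest read 10.93 and 10.95, and the kept probe sets ranged from -0.20 to 0.014. Among the kept integrin members, ITGB5 alone was higher in A375M on its brightest probe set, at 10.34 and 10.37. Its 4 probe sets differed by 0.033 to 0.086. Itgb5 ranged from -0.074 to 0.046 in LM8. ITGB4, the laminin receptor subunit of hemidesmosomes, read 5.60 and 5.59 in LM8 and 5.15 in both A375M arrays, close to the array median in each.

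Over the integrins among the members, 13 of 16 kept genes had lower values after knock-down in A375M on their brightest probe sets. Of the rest 1 was higher and 2 were identical, and the median of the group was -0.14. Over all kept genes in A375M 40.3% were lower, 29.0% higher and 30.8% identical. The 13 include ITGA10 (-0.0026), ITGAV (-0.0044) and ITGA7 (-0.067), which lay within the technical gauge. Of the 11 alpha subunits among them 10 were lower and 0 higher. In LM8 the 14 kept integrin genes divided into 6 lower and 8 higher, with a median of 0.018, where 53.8% of all kept genes were higher. This grouping was made after the values were seen.

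**Figure D2:**
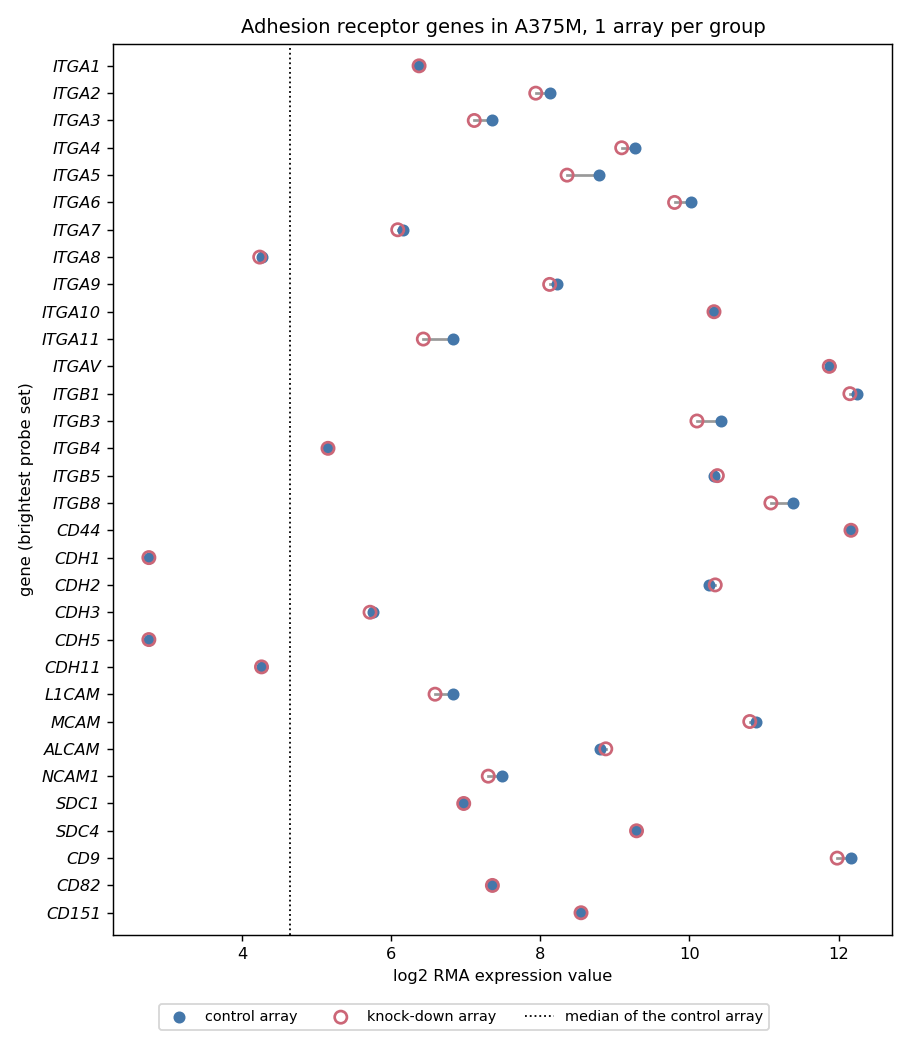
Log2 RMA expression values of 32 adhesion receptor genes in A375M, drawn as for LM8, with the dotted line at the control median of 4.64. The open circles of ITGA5 (8.79 to 8.36), ITGA11 (6.83 to 6.43), ITGB3 and ITGB8 lie to the left of the filled points, and those of CD44, SDC1 and CD151 coincide with them.

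The cadherins that passed the filter were CDH3 in LM8, and CDH2 and CDH3 in A375M. In LM8 only Cdh3, P-cadherin, passed the filter, and only through the control array (5.37 and 5.27). Cdh1, E-cadherin, lay below the median at 4.54 and 3.91, and its difference of -0.63 rests on signal near background. Cdh2 (3.85 and 3.80), the endothelial Cdh5 (4.02 and 3.91), the osteoblast cadherin Cdh11 (2.92 and 2.76) and Cdh13 (4.66 and 4.57), which is held by a lipid anchor and lacks a cytoplasmic tail, were also below it. Cdh11 was thus dim in these cells although the osteoblast markers lay above the median. In A375M CDH2, N-cadherin, was bright, at 10.27 in the control and 10.35 in the knock-down, and its second probe set differed by 0.029. CDH1 read 2.75 in both arrays, CDH5 also read 2.75 and CDH11 read 4.26, all below the median, and CDH3 read 5.76 and 5.71. The A375M control and knock-down arrays thus had CDH2 well above and CDH1 below the array median alike.

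NCAM1, a homophilic adhesion molecule of neural and neural crest cells, was lower on its brightest probe sets in both lines. In LM8 these read 7.03 and 6.66, 7.17 and 6.50, and 6.43 and 5.78, differences of -0.37, -0.67 and -0.65. The other kept probe sets differed by 0.013 and 0.43, the latter reaching the median only in the knock-down array (4.86 and 5.29). The mean over all 7 mouse probe sets differed by -0.21, short of the threshold, as did the brightest with 32 added to the linear values (-0.29). In A375M the kept probe sets read 7.48 and 7.30, 7.21 and 6.76, and 5.74 and 5.62, differences of -0.18, -0.46 and -0.12.

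Mcam, also called CD146 and first known as a melanoma marker, read 6.73 in the LM8 control and 7.25 in the knock-down, 1.43-fold higher (0.52), on its only probe set. In A375M the MCAM probe set with this symbol alone read 10.90 and 10.81, a difference of -0.086, and a dimmer one was identical. A further 4 human probe sets carry a microRNA's symbol beside that of MCAM and were not used. They differed by 0.16, 0.055, 0 and 0.061, so none was lower, and 1 of them (11.39 and 11.45) was brighter than the one used. The human probe sets thus give no direction for MCAM. L1CAM, a neural adhesion molecule, read 6.83 and 6.59 in A375M (-0.24) and was identical, at 5.45, on its second probe set. In LM8 it lay below the median at 4.56 and 4.34. ALCAM, a ligand of CD6, read 8.80 and 8.88 in A375M, and all 5 mouse probe sets were below the median.

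**Figure D3:**
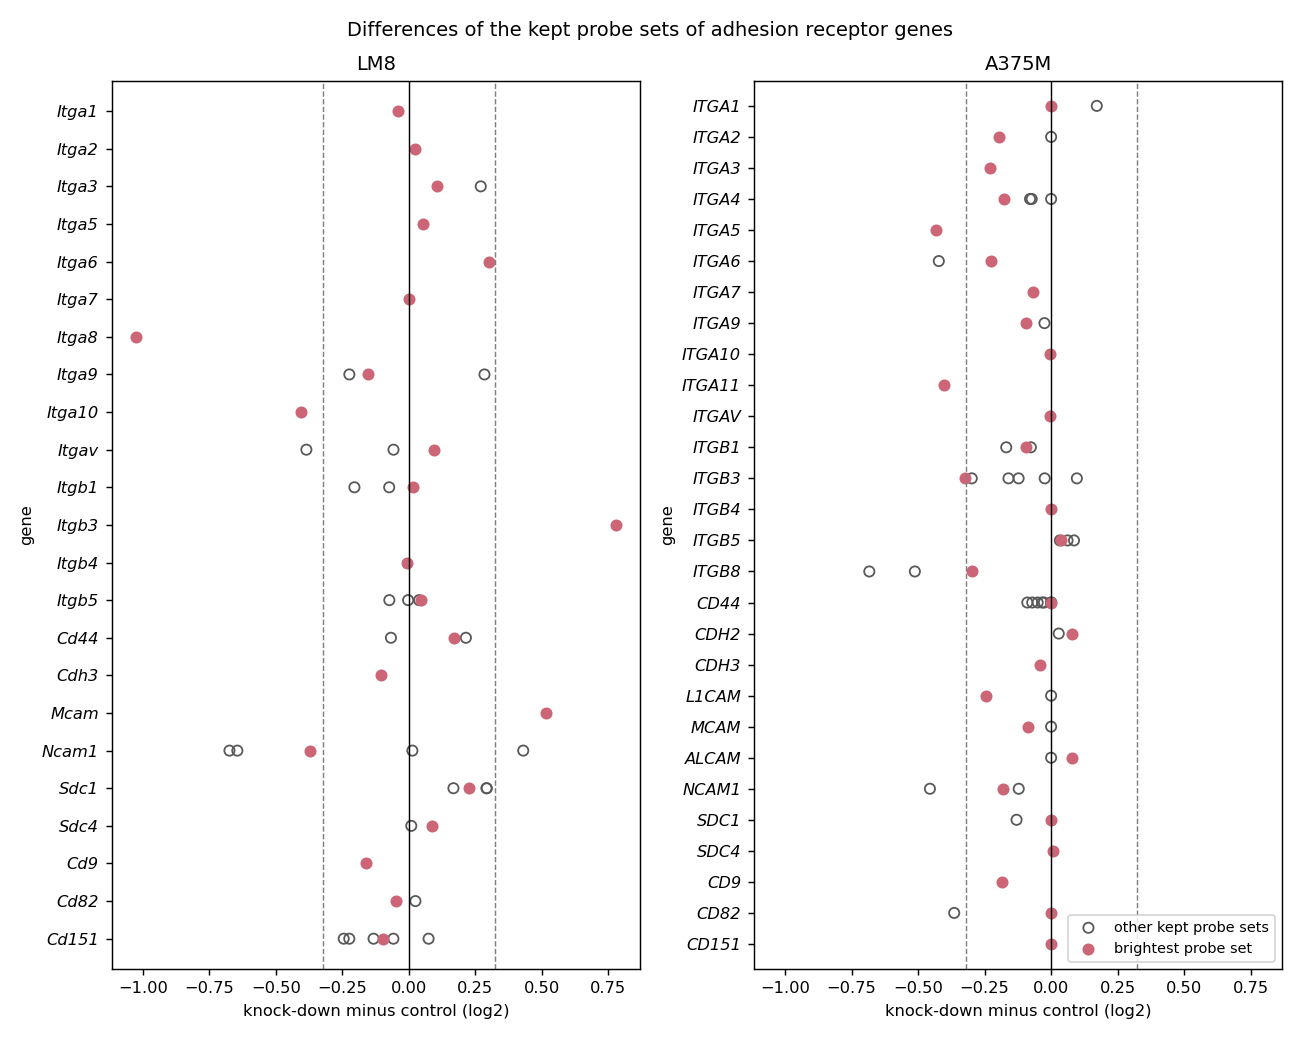
Difference between the knock-down and the control array (log2) for each kept probe set of the members, with the brightest probe set filled, the others open, and dashed lines at the threshold of 0.32 in either direction. The 3 kept ITGB8 probe sets all lie left of 0, while those of Ncam1 in LM8 spread from -0.67 to 0.43.

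CD44, the hyaluronan receptor, and the heparan sulphate proteoglycans SDC1 and SDC4 were higher in LM8 on their brightest probe sets, by 0.088 to 0.22. Sdc1 was higher on all 4 probe sets, which read 9.73 and 9.96, 9.69 and 9.86, 7.98 and 8.27, and 6.08 and 6.38, with differences from 0.17 to 0.29. Cd44 read 11.50 and 11.67, and 11.37 and 11.58, on its bright probe sets, and differed by -0.068 on the third. Sdc4 differed by 0.088 and 0.0088. None of these 3 genes passed the threshold. In A375M CD44 read 12.17 in both arrays, and its 8 kept probe sets ranged from -0.090 to 0, with 5 lower and 3 identical. SDC1 read 6.97 in both arrays (and -0.13 on its other probe set) and SDC4 read 9.28 and 9.29.

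The tetraspanins, which gather integrins in membrane microdomains, did not pass the threshold in LM8, and Cd82 and the brightest Cd151 probe set lay within the technical gauge. Cd9 read 12.69 and 12.53, a difference of -0.16, Cd151, a partner of laminin-binding integrins, was lower on 5 of 6 probe sets (-0.25 to 0.074), and Cd82 differed by -0.047 and 0.024. In A375M CD9 was again lower, at 12.17 and 11.98 (-0.19). CD151 read 8.55 in both arrays. CD82, a metastasis suppressor gene, was identical at 7.36 on its brightest probe set and read 6.91 and 6.54 on the other, a difference of -0.36.

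Set beside all kept genes, the members in LM8 had nearly the same median. Larger shares of them passed the threshold, but on few genes. There 3 of 23 kept members were lower by at least the threshold, where 5.28% of all 11646 kept genes were, and 2 of 23 were higher by as much, where 5.78% were. At 1.5-fold the counts were 1 lower (Itga8, background 1.31%) and 1 higher (Itgb3, background 1.16%). Itgb3, which is in both counts of higher members, passed the filter only through the knock-down array, so its part in them supports nothing. The members divided into 11 lower and 12 higher with a median of 0.014, and all kept genes had a median of 0.015.

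In A375M more of the members were lower. Of 28 kept members 18 were lower, 4 higher and 6 identical (64.3%, 14.3% and 21.4%), where 40.3%, 29.0% and 30.8% of all kept genes were. Their median was -0.077, against 0 for all kept genes. The lower values lay mostly among the integrins. The 12 members other than integrins divided into 5 lower (41.7%), 3 higher and 4 identical, with a median of 0. This division of the members was made after the values were seen. Lower by at least the threshold were 3 of 28 (ITGA5, ITGA11 and ITGB3), where 2.78% of 13244 kept genes were, and 0 of 28 were higher by as much, where 2.11% were. No kept member reached 1.5-fold in either direction on its brightest probe set, where 0.37% of all kept genes were lower and 0.378% higher by that much. Without the filter 19 of 32 members were lower, 4 higher and 9 identical, with a median of -0.033, where 31.9% of all 19773 named genes were lower and 28.7% higher with a median of 0. With the filter at the 70th percentile, 3 of 24 members were lower by at least the threshold, where 3.1% of all kept genes were. There 0 of 24 were higher by as much, where 0.918% were, a smaller share than the 2.11% above. Most of these differences were small, and the spread between cultures is not known.

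**Figure D4:**
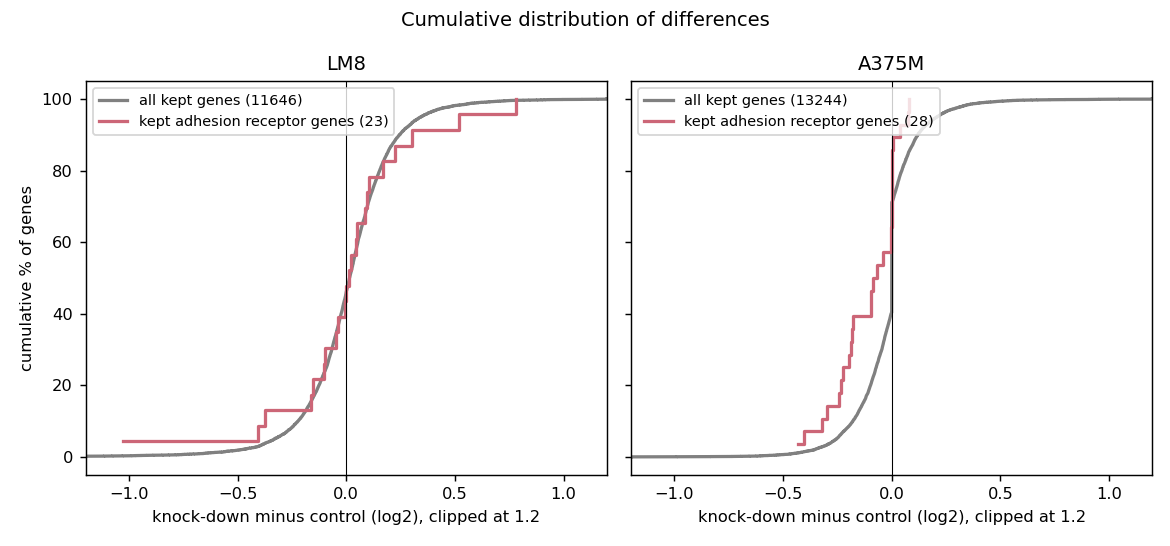
Cumulative share of genes against the difference between the knock-down and the control array (log2, clipped at 1.2), for all kept genes and for the kept members, 23 in LM8 and 28 in A375M. The curves run together in LM8, and in A375M the members' curve lies to the left, with medians of -0.077 and 0.

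The lines were compared by the direction of each member, and the share with opposite signs lay near that over all genes. Of 22 members kept in both, 6 were lower in both, 2 were higher in both, 8 went in opposite directions and 6 were identical in A375M. Over all 8981 genes kept in both by symbol the shares were 20.7% lower in both, 14.9% higher in both and 36.1% opposite, against 27.3%, 9.09% and 36.4% of the members. Across the members, which are not independent replicates, the differences in LM8 and A375M had a Pearson's r of -0.29, and across all genes kept in both 0.033, each axis resting on 1 array pair. No member passed the threshold in the same direction in both lines, which 22 (lower) and 12 (higher) of the 8981 genes did, so the count of 0 among 22 members tells little. On their brightest probe sets ITGA6 (0.30 and -0.22), ITGA3 (0.11 and -0.23) and ITGB3 (0.78 and -0.32) were higher in LM8 and lower in A375M, while NCAM1 (-0.37 and -0.18) and CD9 (-0.16 and -0.19) were lower in both.

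**Figure D5:**
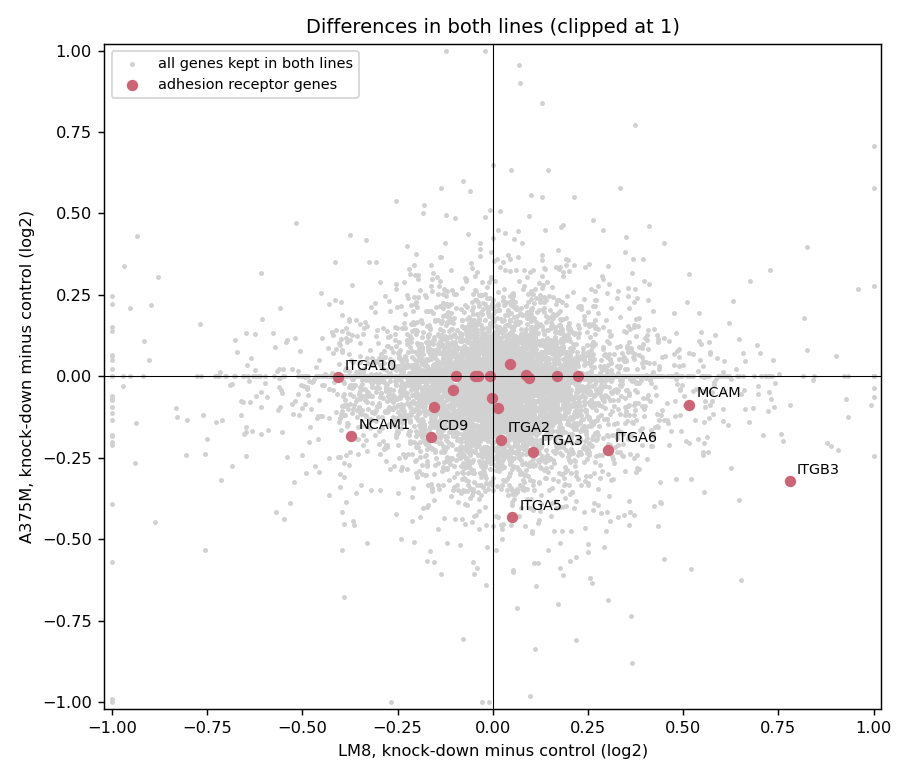
Difference between the knock-down and the control array (log2) in LM8 against that in A375M for 22 members (large points) and all 8981 genes kept in both lines (small points, values beyond 1 drawn at the edge). ITGB3 lies farthest right among the members and below 0, and NCAM1 and CD9 lie below 0 on both axes.

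Of 31 kept genes for integrin adaptors and signalling proteins in LM8 11 were lower and 20 higher, and of 32 in A375M 12 were lower, 8 higher and 12 identical. For comparison, 53.8% of all kept genes were higher in LM8, and 40.3% were lower, 29.0% higher and 30.8% identical in A375M. Whether the list departs from these shares was not tested. Of the 31 list genes in LM8, 1 was lower past the threshold and 2 were higher, and of the 32 in A375M 0 passed it in either direction. Over all kept genes these shares were 5.28% lower and 5.78% higher in LM8, and 2.78% and 2.11% in A375M, and the counts of this list lie near them. Tns3, the adaptor tensin 3, read 11.87 and 11.52 in LM8, a difference of -0.35. Rap1gap, an inhibitor of the integrin-activating GTPase Rap1, read 8.72 and 9.14 (0.41). Apbb1ip, the Rap1 effector RIAM that recruits talin, read 5.05 and 5.51 (0.46), the control value lying below the median. Apbb1ip thus passed the filter only through the knock-down array, and its part in the count of higher genes supports nothing. Of the activators that bind beta tails directly, talin 1 (Tln1) and talin 2 (Tln2) differed by 0.034 and 0.0041 in LM8. Kindlin 2 (Fermt2) and kindlin 3 (Fermt3) differed by 0.0054 and 0.25 there. Actin linkers were of both signs in LM8, with 0.21 (Ilk), 0.19 (Parva), 0.13 (vinculin, Vcl), -0.23 (Parvb), -0.11 (Actn1) and -0.040 (Actn4). In A375M these genes differed by -0.017 (ILK), -0.032 (PARVA), -0.11 (VCL), 0.034 (PARVB), -0.045 (ACTN1) and 0.095 (ACTN4). Paxillin (Pxn), a scaffold of focal adhesions, differed by 0.30 in LM8 and -0.30 in A375M.

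Among catenins and other cadherin partners, only Jup, plakoglobin, passed the threshold, at 5.55 and 6.04 in LM8 (0.49), out of 11 kept genes there and 10 in A375M. Beta-catenin differed by 0.048 in LM8 and -0.038 in A375M. Among the ligands of integrins and CD44, 2 of 16 kept genes were lower past the threshold in LM8 and 1 was higher. In A375M 0 of 21 passed it. Over all kept genes these shares were 5.28% lower and 5.78% higher in LM8, and 2.78% and 2.11% in A375M. With so few genes, the counts of these lists tell little beside those shares, and no departure from them was tested. Ccn1, a matricellular ligand of several integrins, was lower on all 4 probe sets, from 11.76 and 11.30 (-0.46) on the brightest to 8.62 and 7.83 (-0.79) on the dimmest. Lama4 differed by -0.35 and Lama2, whose control value lay below the median, by 0.37. Lama2 thus passed the filter only through the knock-down array, and its part in the count of higher ligands supports nothing. FN1, fibronectin, the ligand of integrin alpha5beta1, differed by 0.24 in LM8 and 0.17 in A375M, where ITGA5 itself was lower.

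Of related receptors outside the 33, the integrin-associated protein Cd47 read 11.95 and 11.43 in LM8 (-0.52) on its brightest probe set, while the next ones differed by 0.020, 0.012 and -0.19, and it was the only 1 of 10 kept genes of its list past the threshold there. GPC3, a glypican, was the only 1 of 15 in A375M, at 4.45 and 4.78, the control value lying below the median. It thus passed the filter only through the knock-down array, and that count supports nothing. Among other tetraspanins, Tspan13 was higher in LM8 on both probe sets, 8.96 and 9.68 (0.72) and 8.53 and 9.01 (0.48), and TSPAN5, a regulator of the protease ADAM10, was higher in A375M, at 5.69 and 6.59 (0.90) and 5.31 and 6.03 (0.72), and by 0.15 on a dimmer one, each gene alone among 10 and 14 kept genes of that list. The leukocyte integrin subunit Itgal read 8.93 and 9.60 in LM8 (0.68) on its bright probe set and differed by -0.16 on the dimmer one. Its partner Itgb2 lay below the median in both LM8 arrays (4.36 and 4.22). ITGAM read 5.09 and 5.42 in A375M (0.33). Of the other cadherins, 2 were kept in LM8 and 6 in A375M, and none passed the threshold in either line. Over all kept genes 5.28% were lower and 5.78% higher past the threshold in LM8, and 2.78% and 2.11% in A375M. Beside these shares, a count of 1 in lists this short tells little, and no departure was tested.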

How the data were processed

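Biotinylated cRNA from total RNA of 4 infected derivatives was hybridised to Affymetrix arrays, 1 per group, with groups read from the titles. Values were used as deposited, on the log2 scale per probe set. RMA is the method that the submitters' processing notes name, without a version. It corrects background, gives all arrays 1 distribution and combines probes, so a shift of all genes would not be seen. The sources used here do not say whether the arrays of a platform were processed together.

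Gene symbols came from the platform annotation, with 8 older symbols mapped to current ones. Differences were knock-down minus control within a line, counted at 0.32 on the log2 scale and at 1.5-fold, without a test. The members and lists were chosen with earlier results of these data known. The same holds for the threshold of 0.32, set because those results showed small differences of these genes. The named genes were all members, the target gene, and up to 4 genes per list and direction past the threshold, while other list genes with values were chosen after these were seen. The 10 alternatives concern the filter, the normalization (a loess curve with a span of 0.4 among them), the probe set, an offset and the threshold. The steps were tested on simulated data. Python 3.11.15, numpy 2.4.6, pandas 2.3.3 and statsmodels 0.14.6 were used.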

Additional observations from a re-analysis of the deposited data

Results flagged for a closer look

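ITGB3 was the only member past the threshold of 0.32 (log2) in opposite directions in the lines (26 of all 8981 genes kept in both were), higher in LM8 and lower in A375M, so that its difference was 1.10 larger in LM8 on the log2 scale. The difference between the lines was not tested, since each value rests on 1 array pair. The LM8 value comes from a probe set below the array median in the control array, with the other mouse probe set at -0.20 and the mean of both at 0.29. The A375M value comes from a bright probe set with 5 of 6 kept probe sets lower.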

How the results depend on the processing

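With 1 array per group no replicate could be left out. Of 58 recomputed counts and medians 48 held, in that a count stayed within 1.5 times its value and a median moved by less than the SD between probe sets. No median moved by more than that, but this says little. The SD (0.12 in LM8, 0.071 in A375M) was larger than the LM8 median and close in size to the A375M one. Without the filter the median went from 0.014 to -0.043 in LM8 and from -0.077 to -0.033 in A375M. The count of members lower by at least 0.32 (log2) in LM8 was 3, and became 5 of 32 without the filter (background 5.61%), 1 of 12 with the filter at the 70th percentile (3.91%) and 1 of 11 on the second brightest probe set (7.57%). The count of higher members in LM8 was 2, and became 0 at the 70th percentile (4.46%), 0 on the second brightest probe set (6.08%) and 1 of 20 with all probe sets of a gene averaged (4.25%). At 1.5-fold there was 1 lower (1.31%) and 1 higher (1.16%) in LM8. The A375M count of 3 lower members became 1 with 32 added to the linear values (1.62%) and 0 at 1.5-fold (0.37%). ITGB3 in A375M reversed, to 0.097, without probe sets marked _x_at or _s_at, and ITGB3, ITGA11 and Ncam1 together fell below the threshold in 9 recomputed values with the same direction. The median of all kept genes lay between -0.030 and 0.026 under the settings tried. Dim probe sets carry little signal over background, which limits Itgb3, Cdh1 and Itgb8 in LM8.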
